A study of Mus musculus with 22 samples.

Results

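Mouse tumours labelled Keap1-deleted and started in the presence of benzo[a]pyrene were compared with tumours that had neither change. The comparison used 11 of the 22 bulk RNA sequencing libraries of the series: the 5 labelled Keap1fl/fl and BAP, called Keap1-deleted BAP here, and the 6 with no Keap1 allele in the genotype label and no BAP, called Keap1-wildtype untreated. All 22 tumours carried Krt5CreER-T2/+, Trp53fl/fl and Rosa26LSL-PIK3CA(H1047R)/LSL-PIK3CA(H1047R), and the Cre was switched on by 4-hydroxytamoxifen injected into the buccal mucosa, the lining of the cheek. The baseline tumours therefore already had Trp53 deletion and activated PIK3CA. Cre was driven from the Krt5 promoter of basal keratinocytes, so cells that do not descend from Krt5-expressing cells were not the intended target. Both factors differ between the 2 groups, and the comparison alone does not separate them; 5 Keap1-deleted untreated and 6 Keap1-wildtype BAP tumours served for that. The stated aim of the series was to examine how KEAP1 and NRF2 bear on radiation resistance and on the immune cells of such tumours. Age and sex were not labelled. The labels did not state that each tumour came from its own animal, so p-values measure the spread between these samples.

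KEAP1 is the adaptor of a ubiquitin ligase that holds the transcription factor NRF2, encoded by Nfe2l2, at a low level. When KEAP1 is lost or oxidised, NRF2 accumulates and switches on genes for glutathione and thioredoxin metabolism, quinone reduction, conjugation of foreign compounds, iron storage and NADPH supply through a DNA motif called the antioxidant response element. Benzo[a]pyrene (BAP) is a polycyclic hydrocarbon of tobacco smoke. It binds the aryl hydrocarbon receptor, which induces cytochrome P450 enzymes that convert it to forms that damage DNA. Squamous carcinomas arise from keratinocytes, which are held together by desmosomes and pass from a basal state marked by Krt5, Krt14 and Trp63 to a differentiated state marked by Krt4, Krt13 and the small proline-rich proteins.

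Library totals were 29602879 to 38345425 counts in the baseline tumours and 29235010 to 39784402 with both changes. The squamous carcinoma label was checked against 13 basal keratinocyte markers. Their summed level in CPM, counts scaled to the size of the library, was 18965 to 48582 in Keap1-wildtype untreated libraries 1 to 5 and 1406 in library 6. In the Keap1-deleted BAP group it was 224 to 1745, with Krt5 at 1.80 CPM in library 4, so keratinocyte RNA was low in all 5 libraries of that group and in Keap1-wildtype untreated 6. On the first principal component of the 11 libraries, which held 49.2% of the variance, Keap1-wildtype untreated 6 lay at 124, among the Keap1-deleted BAP libraries at 88.1 to 153, while the other wildtype libraries lay at -186 to -60.7. In bulk RNA, fewer cells of a type and less RNA per cell cannot be told apart. Titles ended in the letter R, whose meaning was not given, in 4 of 6 baseline and 2 of 5 Keap1-deleted BAP libraries. Y-linked transcripts marked 4 of 6 baseline libraries and 3 of 5 Keap1-deleted BAP libraries.

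In the combined condition many keratinocyte, desmosome, sterol and growth-factor receptor genes fell, and a subset of NRF2-type and macrophage genes rose. Of 19202 genes tested, 3962 passed edgeR's quasi-likelihood test at an adjusted p under 0.05, which is 20.6%: 1247 were higher (6.49%) and 2715 lower (14.1%) in Keap1-deleted BAP tumours. The median log2 fold change over all genes tested was -0.09. In 431 genes (2.24%) every Keap1-deleted BAP library lay above every baseline library, and in 409 (2.13%) every one lay below. Calls held in all 11 fits that left out 1 library each for 478 higher and 1588 lower genes. Without Keap1-wildtype untreated 6 the count of calls was 6847, with 3098 higher and 3749 lower. Scaling by library totals alone shifted the median of all genes to 0.17 and gave 2050 higher and 1767 lower calls. A fit of only the 2 groups gave 398 higher and 1058 lower calls among 17529 genes tested. With the mean log2 level of the basal keratinocyte markers as a term in the fit, edgeR called 0 genes. In that fit 1059 genes had an unadjusted p under 0.05 in edgeR. The marker level came from these same libraries. Its mean was 7.50 (SD 1.52) in the baseline and 3.81 (SD 1.48) in the combined condition. The term therefore overlaps strongly with group, and the fit cannot separate the 2. The part of keratinocyte content in each result below was not tested.

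**Figure D1:**
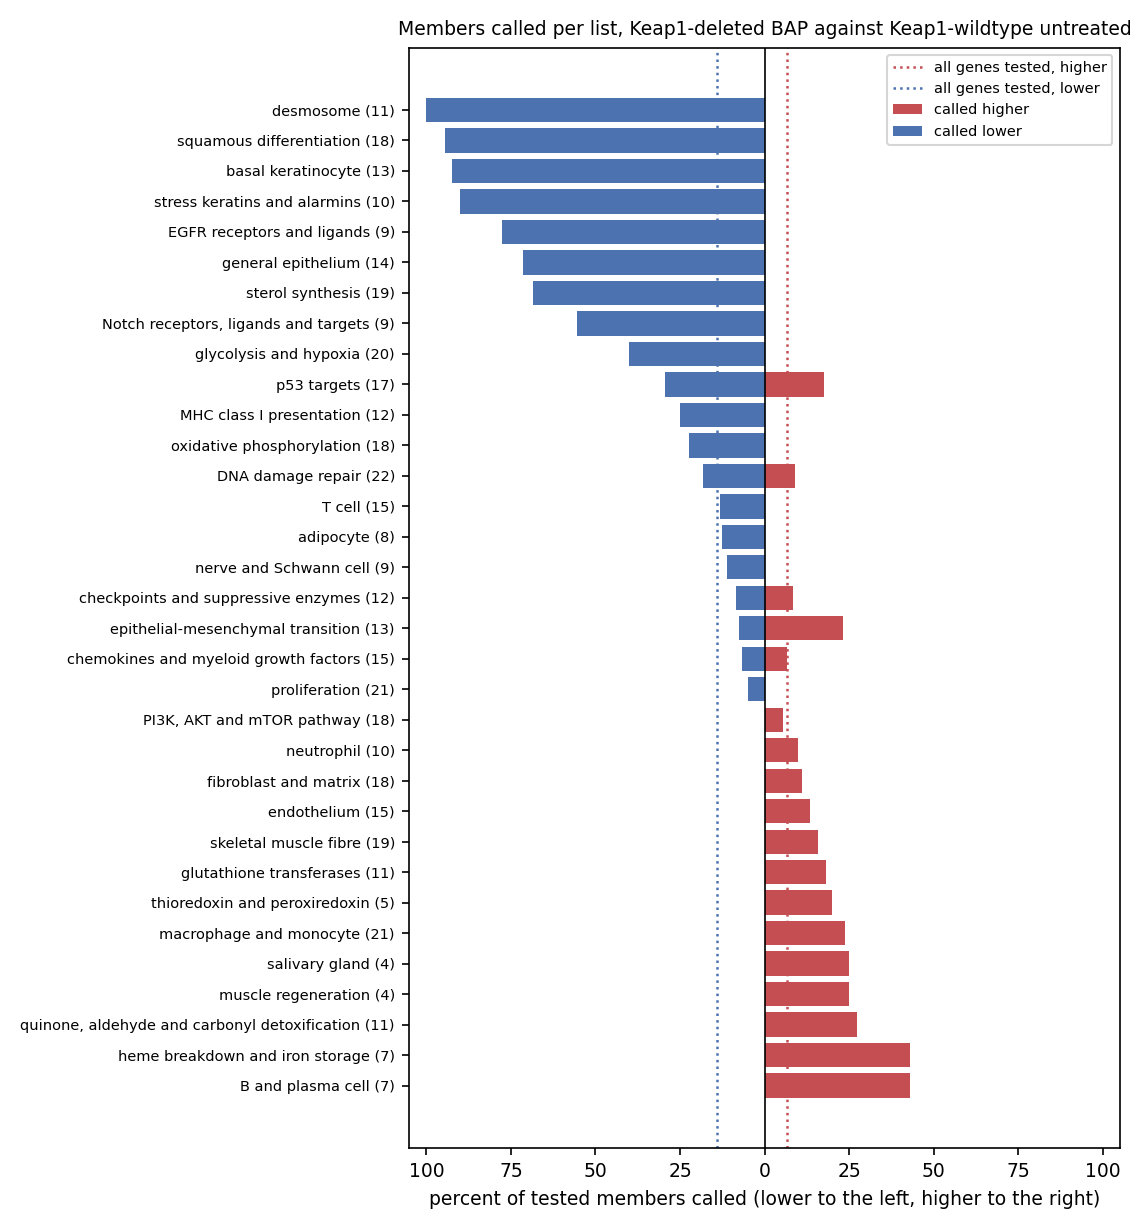
Percent of the tested members of each gene list called lower (to the left) or higher (to the right) in Keap1-deleted BAP against Keap1-wildtype untreated tumours, for the lists with at least 1 call; the number of members tested is in brackets and dotted lines mark the 6.49% and 14.1% of all genes. Epithelial lists fill the lower side, with 11 of 11 desmosome genes. Lists on the higher side include the NRF2-type lists with a call, macrophage and monocyte (5 of 21) and B and plasma cell (3 of 7). The NRF2-type lists for glutathione synthesis, conjugate efflux and NADPH supply had no call and are not drawn.

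The targeted gene itself did not separate the groups fully. Keap1 (chromosome 9, 21229730 to 21239361, minus strand, GRCm38) was at 45.8 to 78.9 CPM with a median of 55.7 in the baseline tumours. In Keap1-deleted BAP libraries 1 to 5 it was at 29.8, 65.6, 9.45, 32.2 and 15.0 CPM. The library labelled Keap1-deleted BAP 2 therefore lay within the wildtype range, and the other 4 lay below it. The log2 fold change was -0.91 (SE 0.32, edgeR adjusted p = 0.048), and -1.40 (adjusted p = 0.0059) without the library labelled Keap1-deleted BAP 2. The call was lost when any other of the 11 libraries was left out, with edgeR adjusted p of 0.052 to 0.12, and under library totals (-0.66, adjusted p = 0.17). The gene count sums all exons and all cells of the tumour, so it does not measure the deleted exons alone.

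Nfe2l2, the NRF2 transcript (chromosome 2, 75675513 to 75704641, minus strand), was lower in the combined condition. It was at 102 to 307 CPM with a median of 169 in the baseline tumours and at 80.4, 89.2, 92.8, 80.2 and 91.4 CPM in Keap1-deleted BAP libraries 1 to 5. The groups did not overlap. The log2 fold change was -1.08 (SE 0.33, edgeR adjusted p = 0.025), with an adjusted p of 0.086 without Keap1-wildtype untreated 1, 0.056 without Keap1-deleted BAP 4 and 0.061 under library totals. Trp53, deleted in all tumours by design, was at 6.34 to 25.2 CPM in the baseline and at 20.6, 12.7, 110, 15.1 and 24.1 CPM in Keap1-deleted BAP libraries 1 to 5. Its log2 fold change of 1.45 (SE 0.46, edgeR adjusted p = 0.032) rested on library 3: without that library it was 0.44, with an adjusted p of 0.37, and the adjusted p was 0.056 to 0.068 without Keap1-wildtype untreated 1, 3, 4 or 5. Pik3ca did not pass the test, with a log2 fold change of -0.25 (edgeR adjusted p = 0.32).

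NRF2-type genes rose in part. Of 50 genes in 7 lists, 49 were tested, 9 rose and 0 fell, with a median log2 fold change of 0.38 beside -0.09 over all genes. The share of these members that rose, 9 of 49, is to be read against the 6.49% of all genes called higher. The genes that rose were Txnrd1, Nqo1, Gstm2, Gstp1, Ugdh, Aox1, Blvrb, Ftl1 and Fech. The lists for glutathione synthesis, conjugate efflux and NADPH supply held no called gene. The fit of only the 2 groups gave 1 higher call each in the thioredoxin, transferase and heme lists, and 0 in the quinone list.

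The start regions of 2 risen genes of the NRF2 lists are shown because they hold the core of the antioxidant response element. Of the 9 genes that rose, 8 had a window in the RefSeq table (GRCm38.p6), which runs from 250 bases before to 50 bases after each annotated start, and 2 of these held TGACNNNGC on either strand. The 250 bases before the start are printed for Txnrd1 on chr10:82858956-82859205, plus strand, an internal start of the gene, and for Ugdh on chr5:65435843-65436092, minus strand, each 5′ to 3′ along the gene with TGACNNNGC or its reverse complement in capitals.
Txnrd1: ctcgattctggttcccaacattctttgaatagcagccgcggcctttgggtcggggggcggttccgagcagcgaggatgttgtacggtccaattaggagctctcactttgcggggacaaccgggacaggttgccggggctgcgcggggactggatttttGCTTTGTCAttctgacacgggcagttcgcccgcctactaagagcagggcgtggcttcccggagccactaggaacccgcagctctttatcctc
Ugdh: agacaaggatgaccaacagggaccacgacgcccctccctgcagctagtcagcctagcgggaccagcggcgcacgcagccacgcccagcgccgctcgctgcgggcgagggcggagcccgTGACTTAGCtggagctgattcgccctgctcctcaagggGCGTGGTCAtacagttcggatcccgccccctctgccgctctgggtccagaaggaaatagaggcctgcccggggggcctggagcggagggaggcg

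Txnrd1 had 1 match in its window and Ugdh had 2, of which 1 overlapped GCGTG, the core of the motif bound by the aryl hydrocarbon receptor. TGACNNNGC occurred in 14 of 40 matched genes of the NRF2 lists (35.0%) and in 14.0% of the 27025 genes of the table. GCGTG occurred in 57.5% of those 40 genes and in 35.1% of all genes. These matches describe letters in the window and are not measured binding sites.

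Thioredoxin reductase, the enzyme that keeps thioredoxin reduced, gave the firmest call among the NRF2-type genes together with Blvrb, which reduces biliverdin and flavins. Txnrd1 was at 33.3 to 205 CPM with a median of 67.1 in the baseline tumours and at 403, 472, 240, 170 and 341 CPM in Keap1-deleted BAP libraries 1 to 5. The only overlap came from Keap1-wildtype untreated 6 at 205 CPM, above library 4 at 170. The log2 fold change was 1.97 (SE 0.35, edgeR adjusted p = 0.0020). Blvrb was at 12.6 to 46.9 CPM with a median of 26.6 in the baseline and at 306, 106, 51.1, 85.4 and 172 CPM in the Keap1-deleted BAP libraries. It was the only member of the NRF2 lists whose groups did not overlap, and its log2 fold change was 2.40 (SE 0.40, edgeR adjusted p = 0.0019).

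Ftl1, the light chain of the iron store ferritin, rose by 1.54 (SE 0.38, edgeR adjusted p = 0.0093) on the log2 scale, from 148 to 952 CPM in the baseline to 769 to 2032 CPM. The 952 CPM was in Keap1-wildtype untreated 6, above Keap1-deleted BAP 2, 3 and 4 at 907, 790 and 769 CPM. Baseline libraries 1 to 5 were at 148 to 450 CPM. Gstm2, a glutathione transferase, was at 2.97 to 23.0 CPM in the baseline and 14.9 to 80.3 CPM in the combined condition (log2 fold change 2.14, SE 0.49, edgeR adjusted p = 0.0060). Reads of Gstm and Gstp genes can be shared among close relatives, so their split is uncertain. Txnrd1, Blvrb, Ftl1 and Gstm2 were called in all 11 fits that left out 1 library. In the fit of only the 2 groups Txnrd1, Blvrb and Gstm2 kept their call and Ftl1 lost it.

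Nqo1, the quinone reductase commonly read as a marker of NRF2 activity, was uneven across the Keap1-deleted BAP tumours. It was at 19.4 to 79.4 CPM with a median of 43.2 in the baseline and at 403, 177, 19.4, 54.3 and 135 CPM in libraries 1 to 5. Library 4 lay within the baseline range, and library 3 was level with the lowest baseline library, Keap1-wildtype untreated 6. Its log2 fold change was 1.66 (SE 0.54, edgeR adjusted p = 0.036). Without library 1 it was 0.96 with an adjusted p of 0.18, and the adjusted p was 0.051 to 0.064 when library 2 or 5 of this group, or baseline library 2, 3 or 5, was omitted.

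The remaining calls of the NRF2 lists were also close to the threshold. Gstp1, a glutathione transferase, had a log2 fold change of 0.97 (edgeR adjusted p = 0.035), which was 0.59 (adjusted p = 0.16) without Keap1-deleted BAP 1 and missed the threshold without Keap1-wildtype untreated 1 to 4 or Keap1-deleted BAP 5, at 0.052 to 0.078. Ugdh, which makes the sugar donor for glucuronidation, had 0.87 (edgeR adjusted p = 0.020), with 0.71 and an adjusted p of 0.063 without Keap1-deleted BAP 3. Aox1, an aldehyde oxidase, had 1.79 (edgeR adjusted p = 0.044), and was called in 2 of 11 fits, those without Keap1-wildtype untreated 6 or Keap1-deleted BAP 3, with an adjusted p of up to 0.13 in the others. Keap1-wildtype untreated 6 had the highest Aox1 of the baseline, at 29.5 CPM. Fech, which inserts iron into heme, had 0.56 (edgeR adjusted p = 0.049) and was called in 3 of 11 fits, those without Keap1-wildtype untreated 6 or Keap1-deleted BAP 1 or 3. Its log2 fold change was 0.36 (edgeR adjusted p = 0.19) in the fit that omitted the library labelled Keap1-deleted BAP 2.

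Members for glutathione synthesis and cystine import gave no call in the combined comparison. Gclc, the catalytic subunit of the enzyme that starts glutathione synthesis, was at 23.4 to 331 CPM in the baseline and 50.5 to 175 CPM in the combined condition (log2 fold change -0.06, edgeR adjusted p = 0.95). Gclm, its modifier subunit, had 0.83 (edgeR adjusted p = 0.19), and 1.23 without Keap1-wildtype untreated 2, where the adjusted p fell just under 0.05. Gsr, which recycles glutathione, had 0.87 (edgeR adjusted p = 0.097), and 1.29 (adjusted p = 0.0043) without Keap1-wildtype untreated 6. That library had the highest Gsr of the baseline, at 171 CPM. Srxn1, which repairs peroxiredoxins, had 0.65 (edgeR adjusted p = 0.36).

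Slc7a11, the cystine importer, was at 59.1, 81.8, 8.63, 22 and 36.9 CPM in Keap1-deleted BAP libraries 1 to 5 and at 16.2 to 142 CPM in the baseline (log2 fold change -1.10, edgeR adjusted p = 0.25). Hmox1, heme oxygenase, had -1.09 (edgeR adjusted p = 0.094), and -1.22 (adjusted p = 0.046) without Keap1-wildtype untreated 6. Gsta4 had -0.71 (edgeR adjusted p = 0.51). Both Gclc and Slc7a11 were lower than in tumours with Keap1 deletion alone, a group that was itself split. Slc7a11 was at 961, 793, 44.9, 114 and 1150 CPM in Keap1-deleted untreated libraries 1 to 5 (log2 fold change of Keap1-deleted BAP against these -3.88, edgeR adjusted p = 0.015). Gclc was at 872, 943, 131, 195 and 947 CPM in the same libraries (log2 fold change -2.52, edgeR adjusted p = 0.033). Libraries 3 and 4 of that group were low for both genes, and library 3 lay within the Keap1-deleted BAP range for both.

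**Figure D2:**
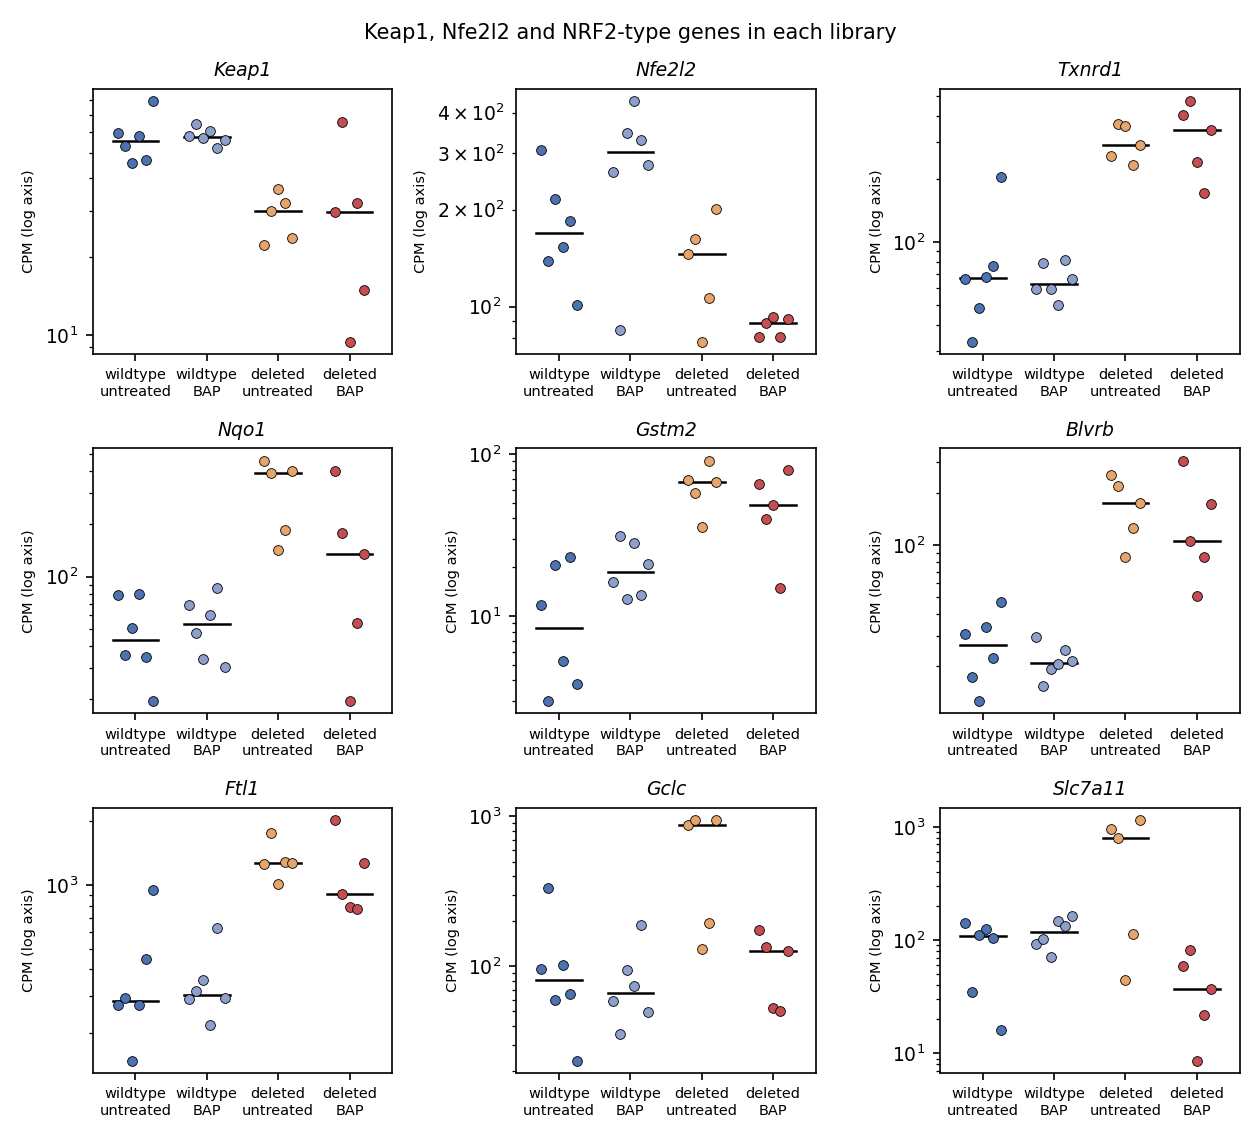
CPM on log axes of Keap1, Nfe2l2 and 7 NRF2-type genes in each of the 22 libraries; each point is a library and each bar the group median. Txnrd1 and Blvrb are high in both Keap1-deleted groups, while Gclc and Slc7a11 split the Keap1-deleted untreated tumours into 3 high and 2 low libraries and overlap the baseline in Keap1-deleted BAP tumours.

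No gene of the aryl hydrocarbon receptor list was called, of 6 tested, at the time the tumours were taken. Cyp1a1, the P450 enzyme that the receptor induces most directly, was at 0 to 2.60 CPM in the baseline and 1.12, 0.859, 5.49, 0 and 0.707 CPM in Keap1-deleted BAP libraries 1 to 5, and the groups overlapped (log2 fold change 1.02, edgeR adjusted p = 0.59; -0.26 without library 3). Cyp1b1, a related P450, had 0.51 (edgeR adjusted p = 0.67) and Tiparp, a feedback inhibitor of the receptor, had -0.19 (edgeR adjusted p = 0.69). Ahrr, the receptor's repressor, was at most 1.40 CPM in any of the 11 libraries. Its log2 fold change was 2.44 (edgeR adjusted p = 0.061), and it passed without Keap1-wildtype untreated 6 (3.45, adjusted p = 0.0070), under library totals (adjusted p = 0.049) and in DESeq2 (adjusted p = 0.0085).

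Targets of p53 went in both directions, with 3 of 17 higher and 5 lower, beside 6.49% and 14.1% of all genes. Cdkn1a, the cell cycle inhibitor p21, was at 64.0 to 367 CPM with a median of 181 in the baseline and at 46.1, 48.3, 60.3, 18.9 and 44.5 CPM in Keap1-deleted BAP libraries 1 to 5. All 5 lay below the lowest baseline library, and the log2 fold change was -2.03 (SE 0.47, edgeR adjusted p = 0.0064). Ccng1, cyclin G, went the other way, from 38.1 to 58.8 CPM to 73.4, 76.6, 70.6, 94.1 and 75 CPM, again without overlap (log2 fold change 0.79, SE 0.15, edgeR adjusted p = 0.0024). Pmaip1, the cell death factor NOXA, fell by 2.55 (SE 0.53, edgeR adjusted p = 0.0038) and Btg2, an antiproliferative gene, by 1.83 (SE 0.40, edgeR adjusted p = 0.0047) on the log2 scale. Mdm2, which marks p53 for degradation, had -0.31 (edgeR adjusted p = 0.41).

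Keratinocyte genes fell as a block. In the basal keratinocyte list 12 of 13 members fell and 0 rose, with a median log2 fold change of -3.74. The general epithelium list had 10 of 14 lower and a median of -3.82. Both counts stand beside 14.1% of all genes called lower. They were 9 and 7 in the fit of only the 2 groups. Krt5, the keratin whose promoter drove the Cre, was at 201 to 7694 CPM with a median of 5662 in the baseline and at 199, 222, 236, 1.80 and 299 CPM in Keap1-deleted BAP libraries 1 to 5. Only Keap1-wildtype untreated 6, at 201 CPM, reached the range of the Keap1-deleted BAP tumours. The log2 fold change was -4.78 (SE 0.96, edgeR adjusted p = 0.0032). Its partner keratin Krt14 went from 763 to 36962 CPM, median 22148, to 824, 1159, 449, 13.0 and 1063 CPM (log2 fold change -4.88, SE 0.99, edgeR adjusted p = 0.0032). Trp63, the master transcription factor of squamous epithelium, was at 13.7 to 447 CPM in the baseline and 3.86 to 26.8 CPM in the combined condition (log2 fold change -4.27, SE 0.75, edgeR adjusted p = 0.0020).

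Cell contact and epithelial identity genes moved with the keratins. All 11 desmosome genes tested fell, beside 14.1% of all genes, with a median log2 fold change of -4.45. All 11 were called in every fit that left out 1 library, and 10 in the fit of only the 2 groups. Jup, plakoglobin, the link between desmosomal cadherins and keratin filaments, was at 64.0 to 3565 CPM in the baseline and 44.6 to 176 CPM in the combined condition (log2 fold change -3.93, SE 0.76, edgeR adjusted p = 0.0027). Perp, a desmosome protein, had a log2 fold change of -4.35 (edgeR adjusted p = 0.0034). Cdh1, E-cadherin, was at 13.9 to 435 CPM and at 11.7, 24.9, 27.6, 0.724 and 22 CPM (log2 fold change -4.20, SE 0.84, edgeR adjusted p = 0.0032), and Cdh3, P-cadherin, had -3.60 (edgeR adjusted p = 0.0023). Elf3 and Grhl2, transcription factors of epithelial cells, had -6.63 and -4.44 (edgeR adjusted p = 0.0020 and 0.0021).

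**Figure D3:**
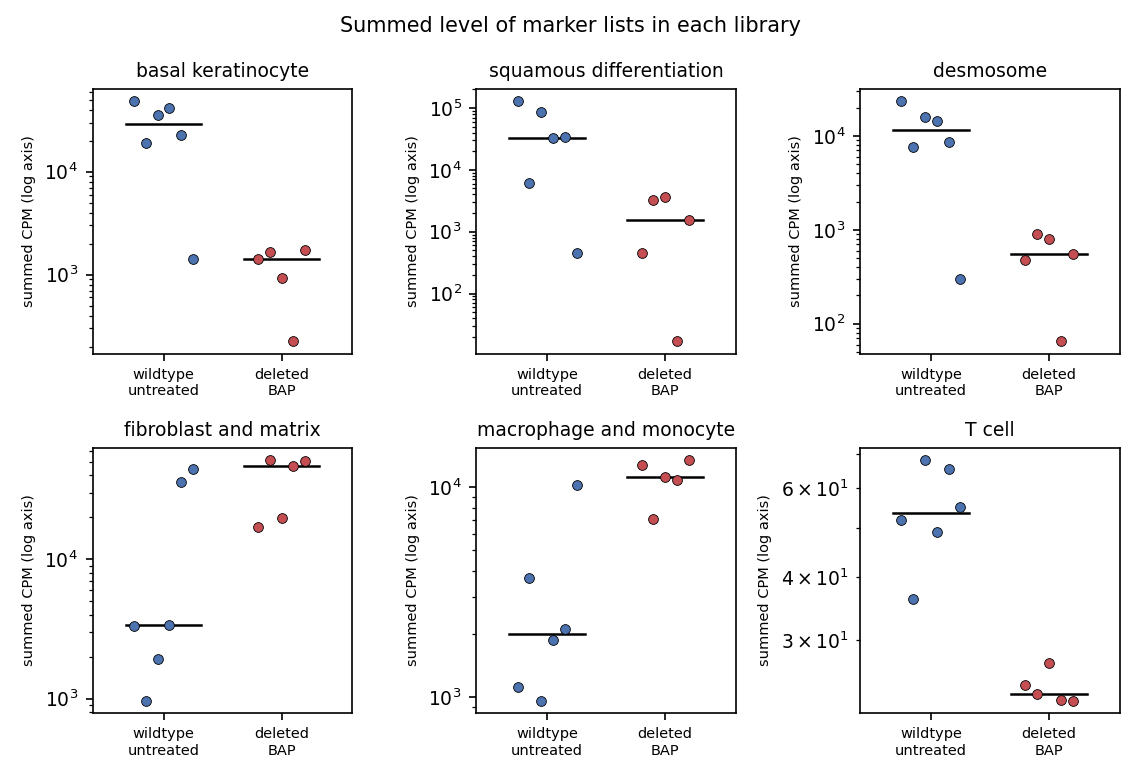
Summed CPM, on log axes, of 6 gene lists in the 6 Keap1-wildtype untreated and 5 Keap1-deleted BAP libraries; each point is a library, in replicate order within a group, and each bar the group median. The sixth wildtype point lies among the Keap1-deleted BAP points for the epithelial, fibroblast and macrophage lists, and the T cell sums of 36.2 to 68.0 and 22.8 to 27.0 CPM, to which Trbc2 adds 18.7 to 44.1 CPM in the baseline, do not overlap.

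Genes of the differentiated layer fell too. In the squamous differentiation list 17 of 18 members fell, beside 14.1% of all genes, with a median log2 fold change of -4.78. In the list of stress keratins and alarmins 9 of 10 fell, with a median of -4.89. The fit of only the 2 groups called fewer, with 7 squamous differentiation genes and 5 stress keratins and alarmins lower. Krt13, a keratin of the differentiated oral lining, was at 5.83 to 1620 CPM with a median of 174 in the baseline and at 0.845, 1.21, 2.25, 0.295 and 3.57 CPM in the combined condition, with no overlap (log2 fold change -8.08, SE 1.79, edgeR adjusted p = 0.0050). Its partner Krt4 was at 0.270 to 781 CPM and 0 to 0.354 CPM, where the lowest baseline library overlapped (log2 fold change -10.19, edgeR adjusted p = 0.0094). Tgm1, the transglutaminase that crosslinks the cornified envelope, had -4.64 (edgeR adjusted p = 0.0030), and its substrate Sprr1a had -5.42 (edgeR adjusted p = 0.0049).

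Genes of the wounded or activated keratinocyte were low as well. Krt6a was at 149 to 13089 CPM in the baseline and at 116, 363, 90.2, 1.61 and 262 CPM in Keap1-deleted BAP libraries 1 to 5 (log2 fold change -5.26, edgeR adjusted p = 0.0039). Krt16 had -5.55 (edgeR adjusted p = 0.0052). Sprr2a1 and Sprr2a2, near-identical cornified envelope genes whose reads can be split between copies, had -10.69 and -11.36 (edgeR adjusted p = 0.0024 and 0.0021), with every Keap1-deleted BAP library below every baseline library. Chil4, a chitinase-like secreted protein, had 0 counts in all 5 Keap1-deleted BAP libraries and 0 to 2703 CPM in the baseline, where library 6 was also at 0. The baseline mean was at least 43144-fold above a floor of 3 counts over the Keap1-deleted BAP group (edgeR adjusted p = 0.017). Baseline libraries 3 and 5, at 2703 and 1069 CPM, carried that mean. Libraries 1, 2 and 4 were at 242, 14.6 and 7.37 CPM, so the fold does not hold library by library. Chil4 was not called in limma-voom or without the low-count filter.

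Called genes of the EGFR and Notch lists went in the same direction, beside 14.1% of all genes called lower. Transcripts were measured, not signalling. Among EGFR receptors and ligands 7 of 9 fell, with a median log2 fold change of -2.19. Egfr itself was at 30.9 to 109 CPM with a median of 82.4 in the baseline and at 25.9, 34.7, 34.6, 33.9 and 47.5 CPM in the combined condition, a log2 fold change of -1.15 (SE 0.25, edgeR adjusted p = 0.0044). Larger differences were seen for its relative Erbb3 (-3.74, edgeR adjusted p = 0.0045) and its ligand Tgfa (-3.63, edgeR adjusted p = 0.0049). In the Notch list 5 of 9 genes fell, among them the ligands Jag1 (-2.47, edgeR adjusted p = 0.0028) and Jag2 (-2.72, edgeR adjusted p = 0.0043).

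Calls in the sterol, glycolysis and oxidative phosphorylation lists were all toward lower levels. Of 19 sterol synthesis genes 13 fell and 0 rose, beside 14.1% of all genes called lower, with a median of -1.38. Mvk, mevalonate kinase, was at 29.3 to 170 CPM in the baseline and 16.1 to 32.7 CPM in the combined condition (log2 fold change -1.96, SE 0.43, edgeR adjusted p = 0.0047). Lss, lanosterol synthase, had -1.74 (edgeR adjusted p = 0.0045), and Hmgcs1, which makes the precursor of mevalonate, had -1.70 (edgeR adjusted p = 0.0049). The sterol count was 8 under library totals, 7 in the fit of only the 2 groups and 8 to 17 with 1 library left out.

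Of 20 glycolysis and hypoxia genes 8 fell and 0 rose, beside 14.1% of all genes called lower, with a median of -0.91. The kinases Hk2 and Pfkp, which commit glucose to glycolysis, had -2.40 (edgeR adjusted p = 0.0073) and -2.15 (edgeR adjusted p = 0.0022), and Ldha, lactate dehydrogenase, had -1.27 (edgeR adjusted p = 0.0080). Of 18 oxidative phosphorylation genes 4 fell, beside 14.1% of all genes, among them Uqcrc1 (-0.89, edgeR adjusted p = 0.012) and Ndufs1 (-0.81, edgeR adjusted p = 0.013), but 0 were called under library totals. In the proliferation list 1 of 21 members was called, beside 14.1% of all genes called lower. It was Mki67, at 82.2 to 251 CPM in the baseline and 48.0 to 94.4 CPM in the combined condition (log2 fold change -1.27, SE 0.26, edgeR adjusted p = 0.0038).

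Some mesenchymal and macrophage genes rose, and how many were called depended on 1 baseline library in particular. Lyz2, the lysozyme of macrophages and neutrophils, was at 71.0, 49.2, 12.8, 121, 206 and 2015 CPM in Keap1-wildtype untreated libraries 1 to 6 and at 4008, 2225, 2622, 3811 and 4782 CPM in the Keap1-deleted BAP libraries. The groups did not overlap, and only baseline library 6 came near. The log2 fold change was 3.08 (SE 0.90, edgeR adjusted p = 0.021), and 5.25 without Keap1-wildtype untreated 6. Mrc1, the mannose receptor of tissue macrophages, was at 0.787 to 196 CPM in the baseline and 211 to 577 CPM in the combined condition (log2 fold change 3.27, SE 1.01, edgeR adjusted p = 0.027). It was 5.77 without that library and it missed the threshold in the fits that omitted baseline library 1 or 5 or Keap1-deleted BAP 3, at adjusted p of 0.050 to 0.056.

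Over the whole macrophage and monocyte list 5 of 21 members rose and 0 fell, beside 6.49% of all genes called higher, with a median of 1.78. The count was 19 of 21 without Keap1-wildtype untreated 6, in a fit that called 3098 of 18984 genes higher. It was as low as 1 in the fits that omitted Keap1-wildtype untreated 1 or Keap1-deleted BAP 3. The fit of only the 2 groups, which called 398 of 17529 genes higher, called 0 members higher, so Lyz2 and Mrc1 were not called there. The summed level of the list was 959 to 3691 CPM in baseline libraries 1 to 5, 10233 in library 6 and 7065 to 13458 in the Keap1-deleted BAP libraries. In the fibroblast and matrix list 2 of 18 rose, Pdgfra and Lox, beside 6.49% of all genes. Without library 6 the count was 9, in a fit that called 3098 of 18984 genes higher. In the fit of only the 2 groups the fibroblast and matrix count was 0. Pdgfra, the platelet-derived growth factor receptor alpha of fibroblasts, was at 2.94 to 292 CPM in the baseline and 253 to 705 CPM in the combined condition (log2 fold change 2.64, edgeR adjusted p = 0.036; 4.37 without library 6). Lox, which crosslinks collagen, had 2.93 (edgeR adjusted p = 0.031; 3.78 without library 6). Leaving out Keap1-wildtype untreated 1, 2, 3 or 4 ended both calls, at adjusted p of 0.050 to 0.074, as did Keap1-deleted BAP 5 for Lox (0.078) and baseline library 5 or Keap1-deleted BAP 2 or 3 for Pdgfra (0.057 to 0.078).

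Among 13 genes of epithelial-mesenchymal transition 3 rose and 1 fell, beside 6.49% of all genes called higher and 14.1% called lower. Zeb2, a repressor of E-cadherin that fibroblasts and macrophages also express, was at 3.09 to 61.7 CPM in the baseline and at 80.1, 62.6, 66.4, 74.2 and 100 CPM in the combined condition, without overlap (log2 fold change 2.12, SE 0.57, edgeR adjusted p = 0.014; 3.11 without Keap1-wildtype untreated 6). Zeb1 had 2.18 (edgeR adjusted p = 0.029), and lost its call without Keap1-wildtype untreated 1 to 4 or Keap1-deleted BAP 2 or 3, at 0.051 to 0.061. Snai2, a repressor that basal keratinocytes also express, fell by 1.84 (SE 0.38, edgeR adjusted p = 0.0034) on the log2 scale, from 8.58 to 100 CPM to 10.9 to 21.9 CPM. The list gave 10 higher calls without Keap1-wildtype untreated 6, in a fit that called 3098 of 18984 genes higher. It gave 0 higher calls in the fit of only the 2 groups, so neither Zeb1 nor Zeb2 was called there.

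Other cell types gave few calls, to be read against the 6.49% of all genes called higher and the 14.1% called lower. Lyve1, a lymphatic and macrophage receptor counted here with endothelium, rose by 2.78 (SE 0.81, edgeR adjusted p = 0.021) on the log2 scale, and by 4.57 without Keap1-wildtype untreated 6. Clec4d, a lectin of neutrophils and macrophages, rose by 2.35 (edgeR adjusted p = 0.014), and was the only call among 10 neutrophil genes. Neither Lyve1 nor Clec4d was called in the fit of only the 2 groups. Fabp4, a fatty acid carrier of adipocytes and some epithelia, was at 10.3 to 4260 CPM in the baseline and at 34.3, 2.75, 21.2, 3.89 and 108 CPM in the combined condition (log2 fold change -6.06, SE 1.39, edgeR adjusted p = 0.0060), the only call among 8 adipocyte genes. The skeletal muscle fibre list had 3 of 19 members higher, with summed levels of 29.9 to 732 CPM in the baseline and 37.6 to 1667 CPM in the combined condition; the count was 0 in the fits that omitted baseline library 3, 4 or 5 or Keap1-deleted BAP 3. The muscle fibre count was also 0 in the fit of only the 2 groups. With the mean log2 level of this list as a term, the fit over all genes gave 573 higher and 1692 lower calls.

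A few genes that place peptides on the cell surface for T cells fell. In the MHC class I list 3 of 12 members fell and 0 rose, beside 14.1% of all genes called lower, with a median of -0.38. Nlrc5, the transactivator of MHC class I genes (chromosome 8, 94434356 to 94527272, plus strand, GRCm38), was at 29.1 to 159 CPM with a median of 62.6 in the baseline and at 17.6, 4.95, 12.2, 5.82 and 9.23 CPM in Keap1-deleted BAP libraries 1 to 5. All 5 lay below the baseline range, and the log2 fold change was -2.87 (SE 0.42, edgeR adjusted p = 0.00098). H2-K1, a class I heavy chain, was at 988 to 1666 CPM in the baseline and at 770, 164, 469, 265 and 286 CPM in the combined condition, also without overlap (log2 fold change -1.62, SE 0.38, edgeR adjusted p = 0.0066). Keap1-wildtype untreated 6, low in keratinocyte markers, had the highest H2-K1 of the 11 libraries and, at 29.1 CPM, the lowest Nlrc5 of the baseline.

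Tap1, the peptide transporter, was at 70.8 to 162 CPM in the baseline and 11.8 to 72.9 CPM in the combined condition, where only library 1 reached the baseline range (log2 fold change -1.57, SE 0.39, edgeR adjusted p = 0.0092). All 3 were called in each of the 11 fits that left out 1 library. The fit of only the 2 groups called Nlrc5 and H2-K1 but not Tap1. The Keap1-deleted untreated libraries also lay below the baseline range for these genes. They were at 10.3 to 27.2 CPM for Nlrc5, 501 to 876 for H2-K1 and 38.0 to 62.3 for Tap1. Against the baseline, that group gave 0 calls in the MHC class I list, and the interaction also gave 0. The lower levels were therefore not particular to the combined condition. H2-K1 has close relatives among the class I genes, so its reads may be shared. None of 23 type I interferon response genes was called in edgeR (median -0.06), and their summed level was highest in 1 library of each group, at 2237 CPM in Keap1-deleted BAP 1 and 2333 CPM in Keap1-wildtype untreated 6.

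Of 15 T cell genes 2 fell and 0 rose, a share near the 14.1% of all genes called lower, and the median log2 fold change of the list was -0.31. Trbc2, a T cell receptor constant chain, was at 18.7 to 44.1 CPM with a median of 26.5 in the baseline and at 5.31, 13.8, 5.33, 4.21 and 7.43 CPM in the combined condition, without overlap (log2 fold change -1.95, SE 0.31, edgeR adjusted p = 0.0015). Cd5, a T cell surface receptor, had -2.88 (SE 0.58, edgeR adjusted p = 0.0032). The other 13 T cell genes were not called, with log2 fold changes that included 1.63 for Cd28 and 0.51 for Cd3e, both chosen after their values were seen. The summed level of the 15 T cell genes was 36.2 to 68.0 CPM in the baseline and 22.8 to 27.0 CPM in the combined condition, and Trbc2 was a large part of the baseline sum. The mean log2 CPM over the 15 genes, which weights them equally, was 0.34 (SD 0.88, n = 6) in the baseline and 0.13 (SD 0.41, n = 5) in the combined condition, and the groups overlapped. The checkpoint ligand Cd274 fell by 1.45 (SE 0.43, edgeR adjusted p = 0.021) on the log2 scale, with an adjusted p of 0.053 without Keap1-deleted BAP 3. It was not called in the fit of only the 2 groups. Of 7 B and plasma cell genes 3 rose, beside 6.49% of all genes, and 0 in the fits that omitted Keap1-wildtype untreated 1 or 4 or Keap1-deleted BAP 3. The fit of only the 2 groups also gave 0. Igkc, an antibody light chain, was at 41.9, 3.92, 326, 16.8 and 7.75 CPM in the Keap1-deleted BAP libraries, and its log2 fold change of 4.22 (edgeR adjusted p = 0.036) was 2.05 (adjusted p = 0.25) without library 3. It was 6.39 without Keap1-wildtype untreated 6, and its adjusted p was 0.051 to 0.074 without any other baseline library.

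**Figure D4:**
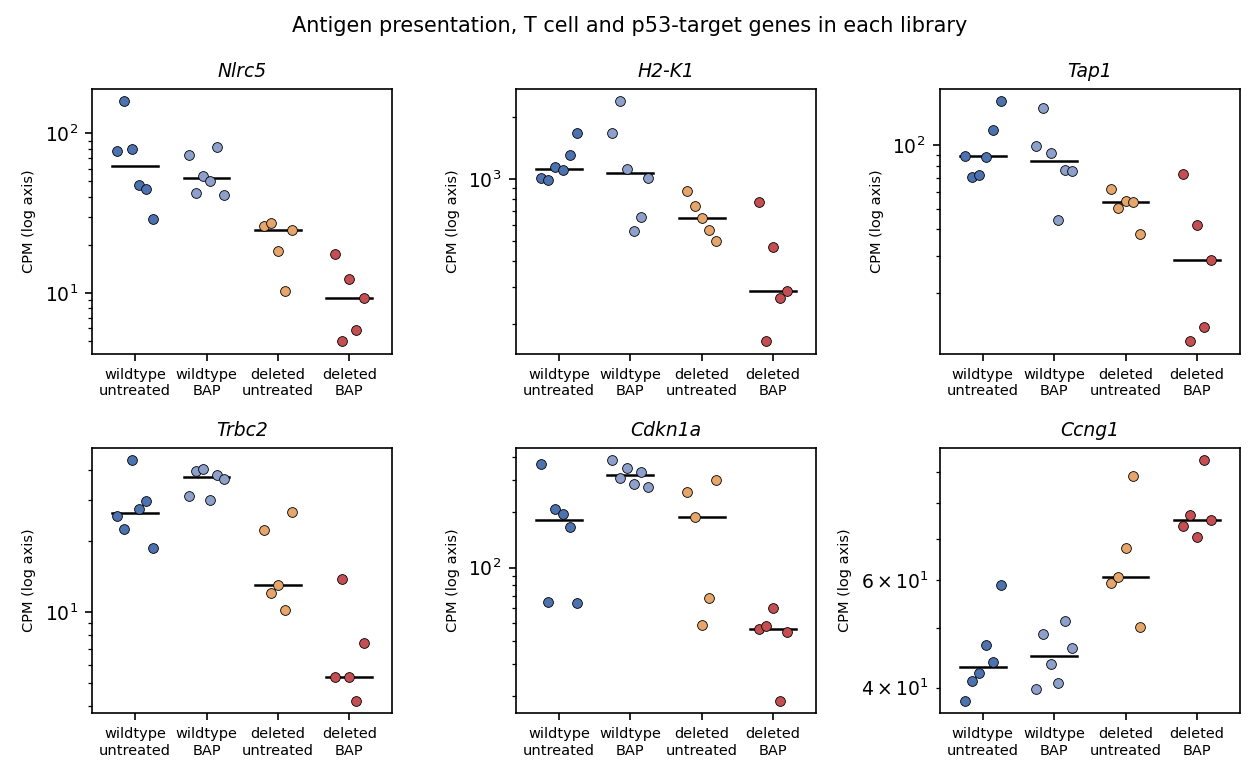
CPM on log axes of 3 MHC class I genes, the T cell gene Trbc2 and the p53 targets Cdkn1a and Ccng1 in each of the 22 libraries; each point is a library and each bar the group median. Nlrc5, H2-K1, Trbc2 and Cdkn1a in the Keap1-deleted BAP tumours lie below all 6 Keap1-wildtype untreated tumours, and Ccng1 lies above them. The Keap1-deleted untreated tumours also lie below all 6 for Nlrc5, H2-K1 and Tap1.

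The smallest p-values belonged to genes outside the lists, with narrow spread. Sema4d, a semaphorin of epithelial and immune cells, was at 51.2 to 95.0 CPM in the baseline and at 26.8, 20.1, 14.3, 18.8 and 27.0 CPM in the combined condition (log2 fold change -1.92, SE 0.22, edgeR adjusted p = 0.00025). Cep76, a centrosome protein, was at 9.02 to 12.6 CPM and at 25.3, 33.1, 26.7, 31.6 and 24.3 CPM (log2 fold change 1.40, SE 0.18, edgeR adjusted p = 0.00057). Ndfip1, an adaptor of NEDD4 ubiquitin ligases, was at 132 to 169 CPM and at 269, 321, 315, 361 and 301 CPM (log2 fold change 1.06, SE 0.15, edgeR adjusted p = 0.00057). None of these 3 overlapped between the groups, and Keap1-wildtype untreated 6 lay with the other baseline libraries for each.

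Other genes of this kind that rose were Ap3s1, a subunit of the AP-3 sorting complex (1.73), St13, a cochaperone of HSP70 (0.87), Gbe1, the glycogen branching enzyme (2.24), and Adam9, a membrane protease (1.63), with edgeR adjusted p of 0.0010 to 0.0017. Those that fell were Mapkapk3, a kinase downstream of p38 (-2.29), Tmem51 (-2.61), Qsox2, a sulfhydryl oxidase (-1.38), and Nlrx1, a mitochondrial regulator of innate immunity (-1.71), each with an edgeR adjusted p of 0.00057. All 8 were called in each fit that left out 1 library, and of these 8 Gbe1 alone overlapped between the groups.

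Large fold changes often rested on genes nearly silent in the baseline. Grik2, a glutamate receptor subunit, was at 0 to 0.201 CPM and at 8.21, 11.6, 6.67, 6.06 and 5.28 CPM (log2 fold change 7.27, edgeR adjusted p = 0.011). Klra4, a lectin-like receptor of the natural killer family, was at 0 to 1.31 CPM and 16.2 to 66.2 CPM (log2 fold change 6.37, edgeR adjusted p = 0.0031). All 5 combined-condition libraries were above the baseline for both genes.

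Inmt, an indole methyltransferase, and Apela, a peptide hormone, had 0 counts in all 6 baseline libraries. Inmt reached 0.531 to 9.05 CPM and Apela 0.0413 to 14.5 CPM (edgeR adjusted p = 0.00062 and 0.0027). Their group means were at least 199-fold and at least 286-fold above a floor of 3 counts over the baseline group. The Apela mean was carried by Keap1-deleted BAP 1 at 14.5 CPM, and library 3 was at 0.0413 CPM, near the floor. Inmt was also at 0.388 to 3.24 CPM in the Keap1-deleted untreated libraries. In contrast, some large values came from 1 library. Dlk1, an imprinted growth regulator, was at 489 CPM in Keap1-deleted BAP 3 and at most 1.36 in the other 4; its log2 fold change of 7.34 (edgeR adjusted p = 0.013) was 0.45 (adjusted p = 0.85) without that library. Sfrp4, a secreted WNT inhibitor, reached 205 CPM in the same library, with 8.06 (edgeR adjusted p = 0.0040) and 4.84 without it. Cacng2, a neuronal channel subunit, reached 54.3 CPM in the library labelled Keap1-deleted BAP 2, with 7.03 (edgeR adjusted p = 0.021) and 3.46 (adjusted p = 0.19) without it. The amylase Amy1 reached 200 CPM in Keap1-deleted BAP 1, with 6.23 (edgeR adjusted p = 0.0056) and 1.52 (adjusted p = 0.27) without it.

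Set against each other group, the combined condition differed from Keap1 deletion alone in 1172 genes (6.10%; 181 or 0.943% higher, 991 or 5.16% lower) and from BAP alone in 7746 genes (40.3%; 3900 or 20.3% higher, 3846 or 20% lower), in the same edgeR fit. These comparisons share the Keap1-deleted BAP libraries. Against the baseline, Keap1 deletion alone gave 56 calls (0.292%; 0.214% higher, 0.0781% lower) and BAP alone gave 0, with 2622 genes at an unadjusted p under 0.05 in edgeR. A total of 98 genes (0.510%) were called higher and 855 (4.45%) lower in the combined condition against all 3 other groups. The count against Keap1 deletion alone fell to 181 without Keap1-deleted untreated 1, 504 without 2, 187 without 5, and 394, 219 and 361 without Keap1-deleted BAP 1, 4 and 5.

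S100a6, a calcium-binding protein, stood apart from all 3 groups. It was at 203 to 968 CPM in the baseline and at 1303, 1211, 1050, 1019 and 1177 CPM in the combined condition, without overlap (log2 fold change 1.5, SE 0.32, edgeR adjusted p = 0.0040). The difference was 1.85 against Keap1 deletion alone (edgeR adjusted p = 0.015) and 2.25 against BAP alone (edgeR adjusted p = 0.00027). Sdc1, the epithelial proteoglycan syndecan, was at 601 to 1518 CPM in the baseline and 100 to 279 CPM in the combined condition; it was lower by log2 differences of -2.17, -1.94 and -2.69 against the baseline, Keap1 deletion alone and BAP alone (edgeR adjusted p = 0.00057, 0.015 and 0.00011). Epas1, the hypoxia-inducible factor HIF2A, had -1.37, -1.94 and -1.66 (edgeR adjusted p = 0.0032, 0.011 and 0.00037).

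The interaction asks whether the combined difference departs from the sum of the 2 single differences. edgeR called 1333 genes (6.94%; 475 or 2.47% higher, 858 or 4.47% lower), among them S100a6 (2.59, edgeR adjusted p = 0.026), Sdc1 (-2.45, edgeR adjusted p = 0.024), Epas1 (-2.23, edgeR adjusted p = 0.024) and Sema4d (-2.19, edgeR adjusted p = 0.0043). For Txnrd1 and Blvrb the interaction was not called (edgeR adjusted p = 0.61 and 0.95), and Keap1 deletion alone gave log2 differences of 1.87 and 2.65 from the baseline, beside 1.97 and 2.40 in the combined condition. For Slc7a11 it was called, at -4.28 (edgeR adjusted p = 0.030). The count of interaction calls fell to 1 without Keap1-deleted untreated 1, 2 or 5 and to 2 without Keap1-deleted BAP 4, with 349 to 800 calls when baseline library 5, Keap1-wildtype BAP 1, 3, 4, 5 or 6, or Keap1-deleted BAP 1 or 5 was omitted. It rose to 2309 without Keap1-wildtype untreated 1.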

How the data were processed

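Bulk RNA sequencing of 22 mouse tumours was used, 11 of them in the main comparison. Per the file headers, the authors deposited expected counts per gene beside effective lengths (another unit, not used as a measurement); per the labels, the samples were tumour RNA. Names of the aligner, counter and build were "not given in the sources used here". Symbols came from GENCODE M21 (GRCm38) and matched 52125 of 56748 identifiers, which held 99.41% of the counts.

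Expected counts were rounded to whole numbers. Genes were filtered with filterByExpr at a minimum count of 10, which left 19202, scaled by TMM and tested with edgeR 4.0.16 in R 4.3.3 (quasi-likelihood, robust) in 1 fit of all 22 libraries with a term per group. A gene was called at a Benjamini-Hochberg adjusted p under 0.05; CPM values use the same scaling. The 42 gene lists held 546 genes, of which 525 were tested. The members and lists were chosen with earlier results of these data known. Named genes were a set of pathway genes, the called genes with the smallest p or largest change at a mean of at least 1 CPM, up to 3 called members of each list, and genes called against all groups or in the interaction; not every gene so selected is printed. A fold against a group with no counts set the mean of the other group against a floor of 3 counts over the group. Promoter windows came from RefSeq (GRCm38.p6).

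On counts simulated for this comparison with 18739 genes, the fit recovered 10 of 67 genes changed by 1 on the log2 scale, 43 of 67 changed by 2 and 64 of 66 changed by 4, with 4 false calls. Genes were drawn independently around pooled means, and only genes with ample counts were changed. The simulated counts held no outlying library and no shared keratinocyte content, so the false calls do not measure the error rate in these tumours. No libraries were duplicates: over 231 pairs, chi-square over 12352 genes, divided by its degrees of freedom, was at least 96.5.

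Alternatives were DESeq2 size factors, library totals, DESeq2 1.42.0, limma-voom (limma 3.58.1), other filters, only the groups compared, the title suffix, keratinocyte and muscle scores as terms, subsets by suffix and leaving out each library. Leaving out Keap1-wildtype untreated 6 together with the library labelled Keap1-deleted BAP 2, and a Y-linked gene as a term, were added after seeing the data.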

Additional observations from a re-analysis of the deposited data

Results flagged for a closer look

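Single libraries lay far from the rest of their group in 32 values, where chance gives about 1 in 20 groups examined and 200 were examined. Keap1-wildtype untreated 6 was far below the other baseline tumours in CPM for Krt5 (201), Krt14 (763), Trp63 (13.7), Cdh3 (6.30), Grhl2 (1.14), Cdh1 (13.9), Krt6a (149), Krt16 (259), Perp (99.0), Snai2 (8.58), Egfr (30.9), Erbb3 (2.31), Tgfa (0.959) and Jag1 (32.5). It was far above them for Igkc (20.6) and Lyve1 (36.8). Keap1-deleted BAP 4 was far below the other tumours of its group for Krt5 (1.80), Krt14 (13.0), Hmox1 (66.4), Cdkn1a (18.9), Nlrx1 (8.91), Cdh1 (0.724), Krt6a (1.61) and Perp (12.6), and far above for Ccng1 (94.1). Other high values were Trp53 (110) and Dlk1 (489) in Keap1-deleted BAP 3, Amy1 (200) in Keap1-deleted BAP 1, Sprr2a2 (0.935) in the library labelled Keap1-deleted BAP 2, Lox (1992) in Keap1-deleted BAP 5, and Mdm2 (127) and Cacng2 (0.500) in Keap1-wildtype untreated 2.

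Interaction calls depended on single libraries. Of 1333 over all genes, edgeR gave 1 without Keap1-deleted untreated 1, 2 or 5 and 2 without Keap1-deleted BAP 4. Most calls listed here therefore did not hold in those fits, and the part of keratinocyte content in them was not tested. The interaction term in edgeR passed at an adjusted p under 0.05 for the following genes, given as log2 differences. Among keratinocyte and epithelial genes these were Krt14 (-4.79), Trp63 (-4.07), Sprr2a2 (-8.21), Krt13 (-8.37), Cdh3 (-3.10), Elf3 (-5.94), Grhl2 (-3.35), Cdh1 (-4.35), Tgm1 (-5.41), Sprr1a (-6.03), Krt6a (-5.56), Krt16 (-5.11), Jup (-4.32), Perp (-4.35), Egfr (-1.32) and Tgfa (-4.67). Among metabolic and stress genes they were Slc7a11 (-4.28), Aox1 (2.92), Cdkn1a (-2.83), Pfkp (-1.80), Lss (-2.12) and Hmgcs1 (-2.12). Among genes of other cell types they were Pdgfra (4.46), Mrc1 (6.32), Lyve1 (3.96), Trbc2 (-1.58), Cd5 (-3.24) and Amy1 (7.73). The others were Cacng2 (13.17), Ndfip1 (0.80), Sema4d (-2.19), Mapkapk3 (-1.89), Tmem51 (-2.03), Qsox2 (-1.16), Nlrx1 (-1.46), S100a6 (2.59), Sdc1 (-2.45) and Epas1 (-2.23).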

How the results depend on the processing

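No paired analysis was possible because the labels give the groups no shared replicate numbers. Of 3962 calls in the combined comparison, limma-voom gave 6023, a fit of only the 2 groups 1456, the keratinocyte term 0, the muscle term 2265, titles ending in R 1607, other titles 1 (2932 genes at an unadjusted p under 0.05), and leaving out Keap1-wildtype untreated 6 with the library labelled Keap1-deleted BAP 2 6146; leaving out 1 library gave 2664 to 6847. Of 1172 calls against Keap1 deletion alone, DESeq2 gave 2102, limma-voom 3237, no low-count filter 398, only the 2 groups 352, the keratinocyte term 2, titles ending in R 237 and other titles 11; leaving out 1 library gave 181 to 1597. Of 7746 calls against BAP alone, the keratinocyte term left 0 (edgeR, 1124 at an unadjusted p under 0.05), the muscle term 2759 and titles ending in R 473; leaving out 1 library gave 6768 to 7536. Of 1333 interaction calls, DESeq2 gave 2964, no low-count filter 111, the R suffix as a term 3021, the keratinocyte term 0 (edgeR, 1372 unadjusted), the muscle term 293, titles ending in R 0 (edgeR, 2015 unadjusted) and other titles 680; leaving out 1 library gave 1 to 2309. The interaction has no fit of only 2 groups. Signs turned in these log2 fold changes. Under library totals Pik3ca was 0.0056, Gclc 0.095 and Tiparp 0.13. Gclc was 0.26 with limma-voom, 0.0083 with only the 2 groups and 0.10 with the R suffix. With the keratinocyte term Pik3ca was 0.17, Krt5 0.18, Krt14 0.23, Gclc 2.55, Slc7a11 1.68, Hmox1 0.42, Gsta4 2.42, Tiparp 0.51, Cdkn1a 0.00013, Mdm2 0.44, Cdh3 0.13, Cdh1 0.32, Tgm1 0.015, Sprr1a 1.42, Krt6a 0.50, Krt16 0.48, Perp 0.66, Erbb3 0.55, Tgfa 1.15 and Hk2 0.35. Krt5, Krt14 and Cdh3 are themselves markers in that term, and the term overlaps strongly with group. With the muscle term Cyp1a1 was -0.037 and Tiparp 0.11. Among titles not ending in R Gclc was 0.99, Hmox1 0.088, Gsta4 0.71 and Mdm2 0.15. Without Keap1-wildtype untreated 2 Gclc was 0.64 and Mdm2 0.0080; without Keap1-deleted BAP 3 Gclc was 0.11 and Cyp1a1 -0.26; without Keap1-deleted BAP 4 Gclc was 0.12. With 1 library left out, Gclc ranged from -0.30 to 0.64, Cyp1a1 from -0.26 to 1.88 and Mdm2 from -0.45 to 0.0080. Of these genes Krt5, Krt14, Cdkn1a, Cdh3, Cdh1, Tgm1, Sprr1a, Krt6a, Krt16, Perp, Erbb3, Tgfa and Hk2 were called in the full fit. The cause of these changes was not tested; the subsets by title and by group hold fewer samples. Depth limits genes with few counts, such as Ahrr, at 0 in 3 baseline libraries.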
